A study of Mus musculus with 24 samples.

Results

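mmu-miR-26a-5p and mmu-miR-26b-5p (here miR-26a-5p and miR-26b-5p) are the 5p strands of the mouse miR-26 family, and their levels were followed in the mammary gland at 4 stages of its development. They were chosen by name, as 2 of the 1009 miRNAs listed, with the question of whether they are among the steadiest abundant miRNAs of the gland. Small RNA came from homogenized abdominal and inguinal glands of C57BL/6 females, which are inbred mice, and each of the 24 libraries held the RNA of 1 mouse. The 6 mice of W10 were 10 weeks old and adult, those of P18 were 18 days pregnant, those of Lac7 were nursing at day 7, and those of Inv3 were at day 3 of involution, the regression of the gland once milk is no longer removed. The labels name no transgene and no agent. The days are those of the labels, and the series' design text exchanges the days of lactation and involution and mentions inguinal glands alone. Values are reads scaled to 1000000 reads on the listed miRNAs in each library (RPM), so that each value also depends on what the other miRNAs take.

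A miRNA pairs with target mRNAs mainly through its seed, bases 2 to 8 from the 5′ end, and miRNAs with the same seed are expected to share many predicted targets. The miR-26 family lies in genes of small C-terminal domain phosphatases (Ctdsp1, Ctdsp2 and Ctdspl), which act on RNA polymerase II and on the retinoblastoma protein. It is known for restraining the cell cycle, for targeting the histone methyltransferase Ezh2, and for a part in the formation of fat cells, which fill much of the adult gland. The mature sequences, from the RefSeq table for GRCm38.p6 and with the seed in capitals, are shown to make plain how little separates the pair.
miR-26a-5p: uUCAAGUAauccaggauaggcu
miR-26b-5p: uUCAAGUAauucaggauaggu
Counted from 1 at the 5′ end, the first 21 bases differ by C11U and C21U, with the base of miR-26a-5p written first, and 19 of the 21 are alike. The strands are 22 and 21 bases long. Among the 1679 mature names of the RefSeq table, these 2 alone carry the seed UCAAGUA. Reads with a change or a missing base at the positions that differ could be counted for the other strand. How the counting treated such reads was not tested.

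miR-26a-5p is made from a pair of loci that its reads cannot tell apart. In GRCm38, Mir26a-1 lies at chr9:119031796-119031885 on the plus strand, in an intron of Ctdspl, and its mature strand spans chr9:119031811-119031832. Mir26a-2 lies at chr10:126995530-126995613 on the plus strand within Ctdsp2, where it is intronic in 1 of the 3 transcripts that span it and overlaps an exon of the other 2, one coding and one with a retained intron. Mir26b lies at chr1:74394310-74394394 on the plus strand, in an intron of Ctdsp1. The mRNAs of these host genes were not measured in these libraries.

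Between 660346 and 1165321 reads were counted on miRNAs per library, with the lowest range at Lac7 (660346 to 751890). Each library held 2686 to 7231 reads of miR-26a-5p and 1643 to 3223 of miR-26b-5p, so counting error was small. The counting part of the coefficient of variation was 1.22 to 1.63% for miR-26a-5p and 1.92 to 2.30% for miR-26b-5p, against 5.23 to 14.3% and 4.03 to 9.64% between the mice of a stage. These limits cover counting error only, since reads were not shown to be independent molecules. The summed level of 6 miRNAs that mark epithelium, the miR-200 family and miR-205-5p, went from 15083 to 21387 RPM in the W10 mice over 49216 to 64031 RPM in those of P18 to a maximum of 113795 to 133198 RPM in those of Lac7, and Inv3 mice spread from 24194 to 78695 RPM. Most of this sum was miR-200a-3p and miR-200b-3p (means of 37091 and 15259 RPM over the 24 libraries), both highest at Lac7. In the paper, miR-205-5p reached the cut-off for expression in involuting mice only, and barely. No miRNA of any marker list was at 0 in every library of a stage.

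miR-26a-5p was an abundant miRNA of the gland, at rank 22 to 33 by level, and took 0.372 to 0.758% of the miRNA reads. At W10 its lowest, median and highest values were 6170, 6434 and 7584 RPM. At P18 they were 4156, 4589 and 5084 RPM. At Lac7 they were 5003, 5340 and 5708 RPM, and at Inv3 3720, 4186 and 5476 RPM. All 6 W10 mice lay above every mouse of the other stages, and the other stages overlapped one another. The highest Inv3 value was that of mouse 2, and the other 5 Inv3 mice lay below every Lac7 mouse.

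On RPM, miR-26b-5p was present at about the same level at W10, P18 and Lac7 and was lower at Inv3, while with another scaling, given further on, it was highest at Lac7 and its Inv3 level was near that of W10. It was at rank 36 to 48 and took 0.188 to 0.294% of the miRNA reads. Its lowest, median and highest values were 2488, 2719 and 2797 RPM at W10, then 2461, 2684 and 2766 RPM at P18. At Lac7 they were 2460, 2706 and 2943 RPM, and at Inv3 1875, 2188 and 2347 RPM. Every Inv3 mouse lay below every mouse of the other 3 stages, which overlapped one another.

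**Figure D1:**
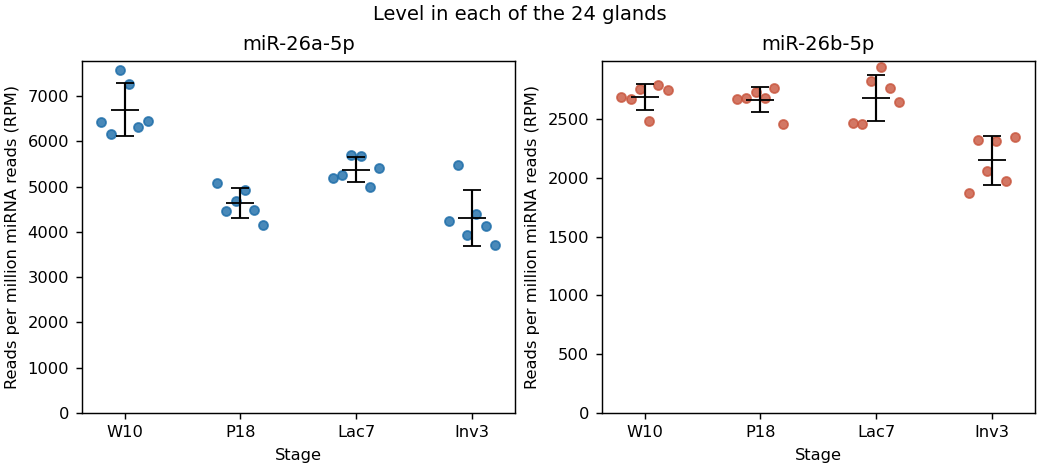
Level of miR-26a-5p (left) and miR-26b-5p (right) in RPM, with 1 point per mouse, 6 mice per stage, and the mean and SD in black. The W10 mice of miR-26a-5p sit above all others (6170 to 7584 RPM), and the Inv3 mice of miR-26b-5p sit below all others (1875 to 2347 RPM).

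The W10 mean of miR-26a-5p was 6704 ± 579 RPM, that of P18 4634 ± 336, that of Lac7 5380 ± 282 and that of Inv3 4316 ± 617 (SD, n = 6 mice per stage). In limma, a linear model fitted to log2(RPM + 1) of 544 miRNAs over the 24 libraries, it was lower at P18 than at W10 by a log2 fold change of -0.53 (standard error 0.096, adjusted p = 4.9e-05), where 41.5% of the miRNAs were called at an adjusted p under 0.05. At Inv3 it was lower than at W10 by -0.64 (adjusted p = 7.1e-06, 39.2% called), a difference that was smaller and missed the threshold with size factors and with edgeR, and lower than at Lac7 by -0.33 (adjusted p = 0.0062, 46.9% called). The difference of Lac7 from W10 was -0.31 on RPM (adjusted p = 0.0054, 66.7% called), a direction that depended on the scaling and turned on other scales, as given further on. Neighbours in the order of its levels, Lac7 and P18 (log2 fold change 0.22, adjusted p = 0.067, 45.2% called) and P18 and Inv3 (-0.11, adjusted p = 0.44, 28.5% called), did not pass on RPM in this fit. Lac7 against P18 passed at the same 0.22 in a fit of those 12 libraries alone (limma adjusted p = 0.0094) and with a filter at 100 RPM (limma adjusted p = 0.033).

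For miR-26b-5p the W10, P18 and Lac7 means were 2692 ± 111, 2667 ± 107 and 2685 ± 197 RPM, and the Inv3 mean was 2149.9 ± 207 RPM (SD, n = 6 mice per stage). Between W10 and P18 the limma log2 fold change was -0.01 with a 95% interval of -0.19 to 0.17, and from P18 to Lac7 it was 0.01 (-0.17 to 0.19). Lac7 differed from W10 by -0.01 (-0.19 to 0.17). On the RPM scale these intervals leave room for a difference of up to 1.14-fold between any pair of the first 3 stages. At Inv3 it was lower than at Lac7 by -0.32 (adjusted p = 0.0034), and on RPM also lower than at W10 by -0.33 (adjusted p = 0.0035) and than at P18 by -0.32 (adjusted p = 0.0077).

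Differences of this size were common in the gland. The mice did not overlap for 26.7% of the miRNAs between P18 and W10, 41.7% between Lac7 and W10 and 15.1% between Inv3 and W10, the pairs in which miR-26a-5p did not overlap. For miR-26b-5p these were Inv3 with each other stage, where 15.1% (W10), 12.5% (P18) and 24.8% (Lac7) of the miRNAs did not overlap. Neither strand changed by a log2 fold change of 1 or more in any pair of stages. Of all miRNAs, 27.6% passed this limit with an adjusted p under 0.05 between P18 and W10, 30.1% between Lac7 and P18, 26.8% between Inv3 and Lac7, 50.2% between Lac7 and W10, 25.0% between Inv3 and W10 and 14.2% between Inv3 and P18. A test of any difference among the 4 stages (limma F-test) called both strands, miR-26a-5p with an adjusted p of 5.2e-06 and miR-26b-5p with 0.0025, as it did 72.6% of the miRNAs.

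Because RPM are shares, the differences were computed again with the size factors of DESeq2. In place of the total of a library, these follow the median ratio over the miRNAs that had reads in every library. Over the 544 miRNAs tested on RPM the median log2 fold change was -0.32 for P18 against W10, -0.34 for Lac7 against P18 and 0.28 for Inv3 against Lac7, and over the 538 tested with size factors it was -0.08, -0.13 and 0.17. The largest shift was between Lac7 and W10, with a median of -0.66 on RPM and -0.28 with size factors. Another scale used the mean of 10 miRNAs often taken as references, although several of these moved between stages themselves.

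On the scale of size factors both strands had their highest mean at Lac7. In scaled RPM, the miR-26a-5p means of W10, P18, Lac7 and Inv3 were then 5352 ± 375, 4418 ± 449, 6317 ± 298 and 4493 ± 666 (SD, n = 6 mice per stage). The miR-26b-5p means were 2155 ± 154, 2543 ± 206, 3155 ± 249 and 2232 ± 182 in that order. From P18 to Lac7, the log2 fold change of miR-26a-5p was 0.52 (adjusted p = 1.1e-04) and that of miR-26b-5p 0.31 (adjusted p = 0.0068), where 44.2% of the miRNAs were called. Between Lac7 and W10 the sign turned for miR-26a-5p, to 0.24 (adjusted p = 0.041), and miR-26b-5p was higher by 0.55 (adjusted p = 9.5e-06), with 62.8% called. For miR-26a-5p, edgeR (0.14, adjusted p = 0.26) and limma on the reference scale (0.13, adjusted p = 0.22) had the same sign but missed the threshold. From W10 to P18, a step without a difference on RPM, miR-26b-5p was higher by 0.24 (adjusted p = 0.042, 39.6% called). On the reference scale that step stayed at -0.03 (limma adjusted p = 0.82). With size factors the lower Inv3 level of miR-26b-5p than at W10 was gone, at 0.05 (adjusted p = 0.76, 29.6% called), and that than at P18 was -0.19 (adjusted p = 0.14, 26.4% called).

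The lower level of both strands at Inv3 than at Lac7 was found on every scale. With size factors the log2 fold changes were -0.50 for each (adjusted p = 1.7e-04 for miR-26a-5p and 6.3e-05 for miR-26b-5p, 46.1% called), and on the reference scale -0.50 for each. Over the same step the median miRNA was higher at Inv3 on RPM and with size factors, so that relative to it miR-26a-5p was lower by -0.61 on RPM and -0.67 with size factors, and miR-26b-5p by -0.61 and -0.67. miR-26a-5p was also lower at P18 than at W10 on every scale, by -0.28 with size factors (adjusted p = 0.029, 39.6% called) and -0.55 on the reference scale. edgeR on the recovered reads gave -0.23 for that step, which missed the threshold (adjusted p = 0.098). Against W10, the lower Inv3 level of miR-26a-5p kept its sign on every scale and was -0.26 with size factors (adjusted p = 0.0502) and -0.37 on the reference scale (adjusted p = 0.0028).

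**Figure D2:**
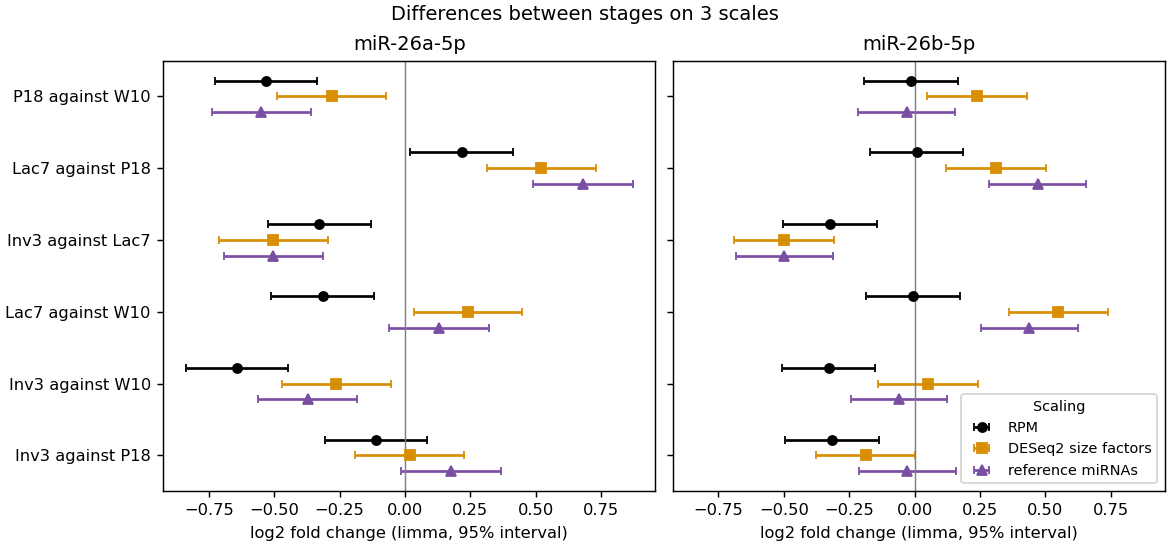
Log2 fold changes of miR-26a-5p (left) and miR-26b-5p (right) between pairs of stages, from limma with 95% intervals, on RPM (black circles), DESeq2 size factors (orange squares) and the mean of 10 reference miRNAs (purple triangles), n = 6 mice per stage. Inv3 against Lac7 is below 0 on all 3 scales for both strands, while Lac7 against W10 is at -0.31 on RPM and 0.24 with size factors for miR-26a-5p.

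The ratio of miR-26a-5p to miR-26b-5p within a library does not depend on the scaling. It counts reads and not molecules, since library preparation can take up different sequences unequally. In every library miR-26a-5p had more reads, and the ratio was highest in adult mice. At W10 the lowest, median and highest ratios were 2.26, 2.37 and 2.93, and at P18 1.62, 1.70 and 1.90. They were 1.81, 2.03 and 2.14 at Lac7 and 1.58, 1.999 and 2.35 at Inv3. The W10 mice lay above every P18 and Lac7 mouse, and Inv3 overlapped all 3 other stages.

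Mean ratios were 2.50 ± 0.27 in W10 mice, 1.74 ± 0.11 in P18 mice, 2.01 ± 0.12 in Lac7 mice and 2.02 ± 0.28 in Inv3 mice (SD, n = 6 mice per stage). By a two-sided exact permutation test on the log2 ratio, adjusted over the 6 pairs of stages, P18 was lower than W10 by -0.52 (95% interval -0.68 to -0.36, adjusted p = 0.0065). Lac7 was lower than W10 by -0.31 (-0.47 to -0.15, exact adjusted p = 0.0065) and Inv3 by -0.31 (-0.56 to -0.08, exact adjusted p = 0.023). From P18 to Lac7 the ratio rose by 0.21 (0.09 to 0.32, exact adjusted p = 0.013), a call that limma on the ratio did not make (adjusted p = 0.119). Between Lac7 and Inv3, where both strands were lower by similar amounts, the difference was -0.00 with an interval of -0.22 to 0.19 (exact adjusted p = 0.96). Inv3 and P18 differed by 0.21 (-0.01 to 0.40, exact adjusted p = 0.073), and without Inv3 mouse 6, which had the lowest Inv3 ratio, this became 0.27 (exact adjusted p = 0.0097). Of the 12 refits that each left out 1 mouse of this pair of stages, only that 1 passed the threshold.

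**Figure D3:**
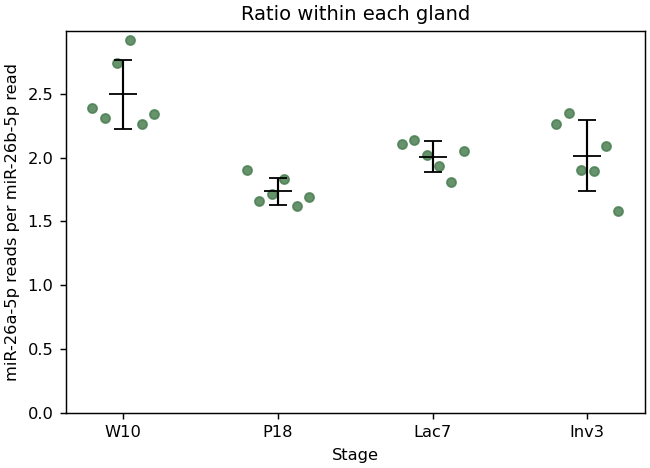
Reads of miR-26a-5p per read of miR-26b-5p in each gland, with 1 point per mouse, 6 mice per stage, and the mean and SD in black. The W10 mice (2.26 to 2.93) sit above those of P18 (1.62 to 1.90) and Lac7 (1.81 to 2.14), and the Inv3 mice spread from 1.58 to 2.35.

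Together the strands made up 9396 ± 556 RPM in W10 mice, 7301 ± 402 in P18 mice, 8064 ± 427 in Lac7 mice and 6466 ± 708 in Inv3 mice (SD, n = 6 mice per stage), or 0.940, 0.730, 0.806 and 0.647% of the miRNA reads. Between mice of the same stage they were only loosely related. Over the 24 mice, after the stage means of log2(RPM + 1) were subtracted, Pearson's r was 0.25 (permutation p = 0.40) and Spearman's rho 0.18 (permutation p = 0.42), and r was 0.06 without W10 mouse 3 and Inv3 mouse 2. With size factors r was 0.41 (permutation p = 0.071), rho 0.39 (permutation p = 0.076) and r without 2 mice 0.52. These relations did not pass the test, and the points share a library and its scaling.

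The opposite strands of the hairpins were at the limit of detection. miR-26a-1-3p had 25 reads over all 24 libraries and 0 in 8 of them, miR-26a-2-3p 60 reads and 0 in 4, and miR-26b-3p 43 reads and 0 in 5. The 5p strand had 1370 reads for each 3p read in miR-26a and 1306 in miR-26b, so nearly all reads of the family came from the 5p strands. Between Lac7 and Inv3, limma called miR-26a-2-3p higher at Inv3 (adjusted p = 0.025) and miR-26b-3p lower (adjusted p = 0.0097), but both rest on few reads. miR-26a-2-3p summed to 6 reads at Lac7 and 22 at Inv3, and miR-26b-3p to 12 and 4. Most libraries were at or under 3 reads, the count that 0 reads allows, so no fold is given.

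Steadiness was described as the range of the 4 stage means of log2(RPM + 1), among the 63 miRNAs that averaged 1000 RPM or more. miR-26b-5p ranked 3 from the steadiest, with a range of 0.33 (1.26-fold between W10 and Inv3), and miR-26a-5p ranked 11, with 0.64 (1.56-fold, also between W10 and Inv3). The median range of the 63 was 1.28 (2.43-fold), and 21 had a range under 1. The 5 steadiest on RPM were miR-23b-3p at 0.22, miR-126a-3p of endothelium at 0.26, miR-26b-5p, let-7g-5p at 0.40 and let-7b-5p at 0.43. Within stages, the SD between mice was smallest of the 63 for miR-26b-5p, at 0.098 on the log2 scale, while miR-26a-5p ranked 8 at 0.131 and the median was 0.244.

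With size factors the pair changed places. miR-26a-5p then ranked 4 with a range of 0.52 (1.43-fold, from P18 to Lac7) and miR-26b-5p ranked 6 with 0.55 (1.46-fold, from W10 to Lac7). The ranks ahead of miR-26a-5p were then held by miR-16-5p (0.41), miR-23b-3p (0.496) and miR-10a-5p (0.502), and miR-126a-3p ranked 10, let-7g-5p 8 and let-7b-5p 7. miR-10a-5p was named after its value was seen. Scaled by the reference miRNAs, miR-26b-5p ranked 2 and miR-26a-5p 9 of 64. Both strands were therefore among the steadier of the abundant miRNAs on the 3 scales, and both still differed among the stages by the F-test. These ranks are descriptions and have no test.

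**Figure D4:**
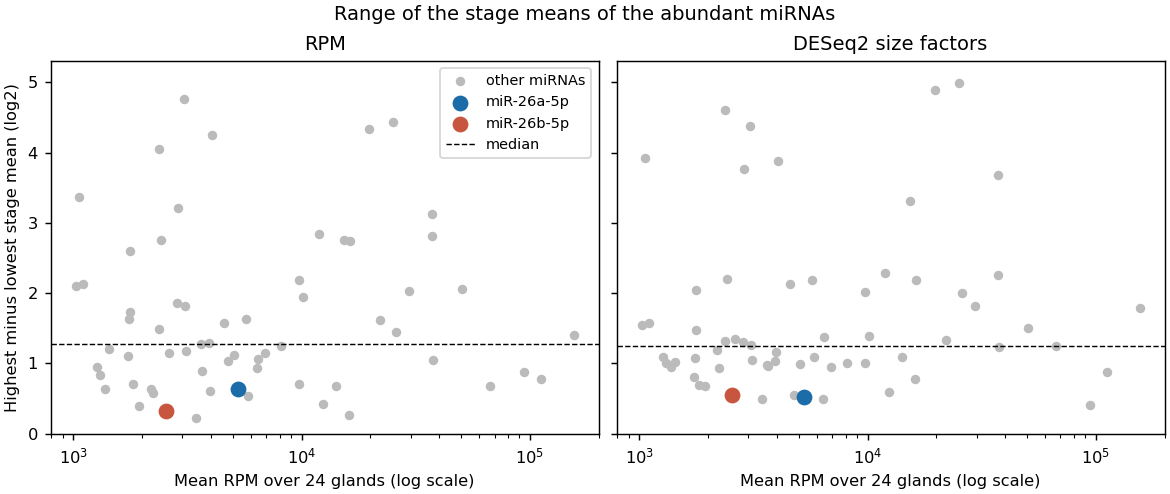
Range of the 4 stage means (highest minus lowest, log2) against mean level (RPM, log scale) for the 63 miRNAs that averaged 1000 RPM or more, on RPM (left) and with DESeq2 size factors (right), with the dashed line at the median of the 63. miR-26a-5p lies at 0.64 and 0.52 and miR-26b-5p at 0.33 and 0.55, all below the median, which is 1.28 on RPM.

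Other miRNAs used as references or tied to the same biology mostly had wider ranges. These lists were not matched to the pair by level, and some members had few reads. Among them were miR-423-3p, the widest of the references on RPM (mean 6.2 RPM at Lac7), the Ezh2-linked miR-124-3p (5.0 RPM over the 24 libraries) and the fat-linked miR-193b-3p (2.1 RPM). On RPM, the 10 miRNAs often used to normalize had ranges of 1.51- to 5.50-fold, with a median of 1.84-fold, and 2 of the 10 had a smaller range than miR-26a-5p and 0 a smaller one than miR-26b-5p. With size factors the median was 1.95-fold and 3 of the 10 had a smaller range than either strand, among them miR-16-5p, whose range of 0.41 on the log2 scale was the smallest of the abundant miRNAs. On RPM miR-16-5p went from 116382 ± 7951 RPM at W10 to 63494 ± 3461 at Lac7 (SD, n = 6 mice per stage), and miR-103-3p from 36768 ± 2968 at P18 to 53504 ± 5012 at Lac7. At P18 against W10, limma called 4 of this list higher and 2 lower, beside 12.1% and 29.4% of all tested miRNAs. At Lac7 against P18 it called 1 higher and 6 lower, beside 13.8% and 31.4%, and at Inv3 against Lac7 5 higher and 2 lower, beside 27.9% and 18.9%. With size factors these counts were 5 and 1, 3 and 5, and 2 and 3, beside 17.3% higher and 22.3% lower of all tested miRNAs, then 19.5% and 24.7%, and then 23.4% and 22.7%. On RPM the median log2 fold changes of this list were 0.11, -0.65 and 0.29, beside -0.32, -0.34 and 0.28 for all tested miRNAs. With size factors they were 0.36, -0.35 and 0.11, beside -0.08, -0.13 and 0.17.

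Among 5 other miRNAs known to target Ezh2, the median range was 2.21-fold on RPM, and 0 of 5 had a smaller range than either strand on RPM or with size factors. miR-101a-3p, the most abundant of them, rose from P18 to Lac7 (log2 fold change 0.70, adjusted p = 2.4e-04) and fell to Inv3 (-0.51, adjusted p = 0.0054), and miR-101b-3p did the same (0.48 and -1.14). miR-214-3p, which is also a stromal marker, ran the other way between these stages, with -1.61 and then 1.31. In the 3 steps from W10 to Inv3 the list had 1 higher and 1 lower (12.1% and 29.4% of all miRNAs), then 2 and 2 (13.8% and 31.4%), then 1 and 2 (27.9% and 18.9%). With size factors these counts were 2 and 1 (17.3% and 22.3% of all miRNAs), 2 and 2 (19.5% and 24.7%), and 1 and 3 (23.4% and 22.7%).

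The 10 miRNAs linked to fat cell formation had a median range of 2.47-fold on RPM, where 2 of 10 had a smaller range than miR-26a-5p, against 0 of 10 with size factors. At P18 against W10, limma called 2 higher and 4 lower (12.1% and 29.4% of all miRNAs), at Lac7 against P18 4 higher and 1 lower (13.8% and 31.4%), and at Inv3 against Lac7 4 higher and 5 lower (27.9% and 18.9%). With size factors these were 3 and 4 (17.3% and 22.3% of all miRNAs), 4 and 0 (19.5% and 24.7%), and 3 and 5 (23.4% and 22.7%). miR-378a-3p, hosted by the gene of the coactivator PGC-1β, was lower at P18 than at W10 (-1.27) and higher at Lac7 than at P18 (0.67), and it had the highest correlation with miR-26a-5p of 157 miRNAs over the 24 libraries (Pearson's r = 0.82, a description). miR-143-3p, tied both to fat cells and to smooth muscle, instead reached 24.6% of the miRNA reads at Inv3.

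The let-7 family, whose members share a seed and mark differentiated cells, was lower at Inv3 than at Lac7 like the miR-26 pair. All 9 of its members were lower at Inv3 than at Lac7, on RPM as with size factors, with a median log2 fold change of -0.54 on RPM beside 0.28 for all tested miRNAs, of which 18.9% were lower on RPM and 22.7% with size factors. Against W10, by contrast, 1 of the 9 was higher at Inv3 and 0 lower on RPM, where 39.2% of all miRNAs were called in either direction, and with size factors 4 and 0, where 29.6% were. From W10 to P18, 6 of 9 were higher (12.1% of all miRNAs), and from P18 to Lac7, 2 were higher and 1 lower (13.8% and 31.4%). With size factors these counts were 8 and 0 (17.3% and 22.3% of all miRNAs) and then 6 and 0 (19.5% and 24.7%). Of the 9, 4 had a smaller range than miR-26a-5p on RPM and 0 with size factors, and 0 had a smaller one than miR-26b-5p on either scale. In the miR-30 family, 3 of 5 were lower at P18 than at W10 (29.4% of all miRNAs), 2 were higher at Lac7 than at P18 (13.8%), and 3 were lower at Inv3 than at Lac7 (18.9%). In these directions the counts with size factors were 3 (22.3% of all miRNAs), 5 (19.5%) and 4 (22.7%). miR-30e-5p fell by 0.89 on the log2 scale, from 4786 ± 570 to 2585 ± 400 RPM, and then rose by 0.65 to Lac7.

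By the root mean square difference between centred profiles of log2(RPM + 1) over the 24 libraries, among 157 miRNAs, the profile nearest to miR-26a-5p was that of miR-26b-5p (0.23). After it came miR-1843a-5p (0.25), miR-185-5p (0.27), let-7b-5p (0.29), miR-30e-5p (0.30) and miR-126b-5p (0.31). For miR-26b-5p the nearest were miR-126a-3p (0.18), let-7g-5p (0.20), let-7b-5p (0.21) and let-7f-5p (0.22), then miR-26a-5p (0.23, Pearson's r = 0.56) and miR-28a-3p (0.27). This measure favours steady profiles. By Pearson's r, the 5 nearest shared 1 name with these lists for miR-26a-5p and 0 for miR-26b-5p.

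The tissue is a mixture, and in whole glands fewer cells of a type and less RNA per cell cannot be told apart. Marker miRNAs of several cell types moved between the same stages as the pair. At W10, where miR-26a-5p was highest on RPM, the sum of 4 skeletal muscle miRNAs was 2378 to 24031 RPM, against 104 to 5001 RPM at the other stages, and that of 5 leukocyte miRNAs 25590 to 48957 RPM, against 3993 to 23991. At Inv3, where miR-26b-5p was lowest on RPM, the sum of 5 fibroblast and smooth muscle miRNAs was 256725 to 349601 RPM, against 147025 to 214796 elsewhere. Most of this sum at Inv3 was miR-143-3p, whose mean was 246220 RPM there against 92349 at W10. Of the other members, miR-145a-5p was highest at Inv3, while miR-199a-3p, miR-199a-5p and miR-214-3p were highest at W10. The sum of the 2 endothelial strands ranged from 12532 to 19549 RPM. Its Lac7 values (17157 to 19549 RPM) lay above those of every W10 mouse (maximum 16779) and every P18 mouse (maximum 16421). Inv3 mice spread from 12532 to 17959 RPM. The sum of 3 red blood cell miRNAs ranged from 371 to 1953 RPM. Its W10 median was 1144 RPM and its P18 median 491 RPM, with overlap between the mice. The Lac7 and Inv3 medians of this sum were 956 and 822 RPM. The liver miRNA miR-122-5p was under 3 RPM in every W10 library but reached 2062 RPM in P18 mouse 6 and 54.8 RPM in Lac7 mouse 6. At Inv3 its median was 73.75 RPM, with a maximum of 626 RPM in mouse 2. The part of these cell types in the levels of the pair was not tested.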

How the data were processed

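Small RNA libraries (QIAseq miRNA kit) of 24 mouse mammary glands were sequenced by the authors, trimmed (Trimmomatic 0.36 is named in the submitters' processing notes), counted with QuickMIRSeq against miRBase 22 and deposited as RPM, counts scaled to 1000000 miRNA reads. Whole reads were recovered from the steps of the values (within 0.0051 RPM). In the library of W10 mouse 7 a read is worth 0.9945 RPM, so near 1 that its step is less certain than in the other libraries. The 544 of 1009 miRNAs that averaged 1 RPM or more at any stage were tested with limma 3.58.1 in R 4.3.3 on log2(RPM + 1), with a trend and no covariate, two-sided, with Benjamini-Hochberg adjustment within each pair of stages. A call is an adjusted p under 0.05. Fold changes on this scale understate those of low miRNAs. The ratio was compared by exact permutation over splits of 6 mice against 6, and relations between mice with 100000 permutations within stages. Alternatives were DESeq2 1.42.0 size factors, DESeq2 and edgeR 4.0.16 on recovered reads, other pseudocounts and filters, 12-library fits, a replicate block, each mouse left out and reference miRNAs.

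The fit was tested on simulated data in which pairs of miRNAs, several-fold apart, swapped levels and the total was kept. That test therefore does not bear on the choice of scaling or on differences as small as those of the pair. Tables, permutations and figures were made in python 3.11.15 (scipy 1.17.1, pandas 2.3.3, numpy 2.4.6, matplotlib 3.10.9). Libraries of a stage were no duplicates (smallest chi-square per degree of freedom 9.63 over 60 pairs). The mouse numbers (1 to 6, and 7 for the sixth W10 mouse) are not stated to pair the mice. Named miRNAs are the pair, their opposite strands, the listed miRNAs, the 5 of most similar profile among those with a mean of at least 100 RPM, and the 5 steadiest among those of at least 1000 RPM. miR-378a-3p's correlation and the marker sums were picked out after values were seen. The members and lists were chosen with earlier results of these data known. Gene positions are from RefSeq and GENCODE for GRCm38, a build that is also named in the processing notes. Values of the cell culture experiments and predicted targets are not analysed here.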

Additional observations from a re-analysis of the deposited data

Results flagged for a closer look

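Of 12 groups of 6 mice looked at (each strand and the ratio at each stage), 1 had a mouse far from the others. The miR-26b-5p level of P18 mouse 6 was 2460.83 RPM, below the other 5 P18 mice, and its gap to the nearest of them was 0.695 of the range of the group, above Dixon's 95% critical value for 6 values. Chance passes this limit in about 1 in 20 groups. The same mouse had the lowest miR-26a-5p level at P18, 4156 RPM, and the highest miR-122-5p level of all libraries, 2062 RPM. Leaving out each mouse in turn moved the log2 fold change of miR-26b-5p from W10 to P18 between -0.036 and 0.0096.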

How the results depend on the processing

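Of 133 alternative values with a test, not counting those that leave out a mouse, 94 kept their direction and their side of the threshold, and of 28 list counts and ranks 21 stayed within 1.5 times. Those that kept both include Inv3 against Lac7 for both strands under every alternative. Pseudocounts of 0.1 and 10 and no filter changed none. The reference scaling was chosen after seeing the data. For miR-26a-5p, DESeq2, edgeR, size factors and references gave 0.024, 0.0026, 0.017 and 0.18 for Inv3 against P18, none past the threshold. For Lac7 against W10 they gave 0.24, 0.14, 0.24 and 0.13, where edgeR and references missed the threshold. For Lac7 against P18 they gave 0.52, 0.37, 0.52 and 0.68, all past it. That contrast also passed at 0.22 with 12 libraries or a filter at 100 RPM. With edgeR, P18 against W10 was -0.23 and Inv3 against W10 -0.22, and with size factors the latter was -0.26, none past the threshold. For miR-26b-5p in the same order, Inv3 against P18 was -0.19, -0.21, -0.19 and -0.029, Inv3 against W10 0.051, 0.081, 0.0501 and -0.0598, and Lac7 against W10 0.55, 0.45, 0.55 and 0.44. P18 against W10 was 0.24, 0.29 and 0.24 with DESeq2, edgeR and size factors, all past the threshold, and -0.031 with references, which was not. Lac7 against P18 was 0.31, 0.31 and 0.47 with DESeq2, size factors and references, all past the threshold. With edgeR it was 0.17 and missed the threshold (adjusted p = 0.20). The cause was not tested.

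With size factors, 6 members of the let-7 family and 5 of the miR-30 family were called between P18 and Lac7, where 44.2% of all miRNAs were called. In percent of the miRNAs ranked, the place of miR-26a-5p became 11.1 by SD and 6.35 with size factors, and that of miR-26b-5p 9.52 with size factors, 3.125 with references and 3.16 at a mean of 100 RPM. Mouse numbers are not stated to mark pairs. Over 188 miRNAs, 33 pairs of libraries with one number had a mean correlation of -0.05, against 0.00 for 183 others. Single pairs ran down to -0.79 and -0.83, so these means cannot settle whether the numbers mark pairs. With a replicate block, miR-26b-5p at Lac7 against W10 was 0.00011, and the limma ratio differences of -0.31 (Inv3 against W10), 0.21 (Lac7 against P18) and -0.30 (Lac7 against W10) missed the threshold. Without the block, limma gave the ratio at Lac7 against P18 an adjusted p of 0.119. With each mouse left out, miR-26b-5p ranged from -0.0199 to 0.032 (Lac7 against P18), -0.033 to 0.018 (Lac7 against W10) and -0.036 to 0.0096 (P18 against W10), and the ratio from -0.051 to 0.063 (Inv3 against Lac7) and 0.16 to 0.27 (Inv3 against P18). Depth limits the 3p strands, at most 6 reads in a library.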
